A study of Mus musculus with 16 samples.

Results

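The genes described here are 10 markers of B and T lymphocytes, read in the ventricles of mice with chronic kidney disease (CKD) and of control mice. They were taken by gene symbol, under GENCODE release M21, from a count table of 33399 genes. The 5 B cell genes are Ighm, Igkc, Cd79a, Cd79b and Ms4a1, and the 5 T cell genes are Cd3e, Cd3d, Cd3g, Cd8a and Cd4. All 10 were in the table, and 6 had enough counts for the test across all genes, namely the 5 B cell genes and Cd4. The other 4 had a median of 2 to 7.5 counts per library.

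Bulk RNA sequencing was done on ventricles of wild-type (WT) C57BL/6 mice from Jackson Laboratories, 4 per sex and diet. For the 4 male CKD and 4 female CKD mice, chow holding 0.25% adenine took turns with standard chow over 6 weeks from 8 weeks of age, a schedule named the high-dose regimen. The 4 male control and 4 female control mice, also 8 weeks old at the start, ate only standard chow over those 6 weeks. Adenine chow damages the kidney tubules and is a common way to give a mouse kidney failure without surgery.

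A B cell recognises antigen with a membrane immunoglobulin, made of heavy and light chains and carried to the surface by the signalling chains CD79A and CD79B. A T cell uses a receptor whose signal is passed on by the CD3 chains, with CD4 or CD8 as co-receptor. In the heart both are minority cells among cardiomyocytes, fibroblasts, endothelial cells and macrophages, and some of the lymphocyte RNA in a ventricle sample can come from blood left in its vessels. In such a bulk sample, fewer cells of a type and less RNA per cell cannot be told apart.

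Libraries held 10203707 to 13626039 counts over all genes, and levels are given per 1000000 counts (CPM), on library sizes scaled by the trimmed mean of M values (TMM). All 16 libraries carried 8 genes that define cardiomyocytes, whose summed level was 34500 to 49600 CPM in CKD libraries and 29800 to 43200 CPM in control libraries. A list of 9 lymphoid tissue genes summed to 12.4 to 44.9 CPM in male CKD hearts, against 29.3 to 46.4 CPM in male control hearts, and to 33.3 to 44.2 CPM in female CKD hearts, against 27.5 to 40.8 CPM in female control hearts. The chemokine gene Ccl21a held most of this sum, with 33.5 ± 9.99 CPM in CKD hearts and 32.0 ± 6.35 CPM in control hearts (SD, n = 8 each). Ccl19 had up to 19 counts, Cxcl13 up to 12, and Rag1, Rag2, Dntt, Ptcra, Glycam1 and Madcam1 at most 4 in any library. Some libraries stood apart. Male CKD 4 had the lowest TMM factor, 0.877, and only 1 count of Cd79a. Male control 1 and male control 2 had the highest Igkc counts, and female CKD 4 had 61 counts of the lung gene Sftpc, against at most 3 in any other library.

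Sequences are shown for the clustered CD3 genes and 1 B cell gene. Cd3g and Cd3d lie head to head on chromosome 9, so their start regions are printed first, followed by that of their neighbour Cd3e. That of the B cell gene Cd79a is given for comparison. Each runs from 250 bases before the RefSeq start to 50 bases after it, in GRCm38.p6, 5′ to 3′ on the gene's own strand. Capitals mark the E-box CACCTG or its reverse complement CAGGTG, the ETS motif AGGAAG or CTTCCT, and the GATA motif AGATAA or TTATCT. The regions are chr9:44980382-44980681 on the minus strand for Cd3g, chr9:44981536-44981835 on the plus strand for Cd3d, chr9:45009562-45009861 on the minus strand for Cd3e and chr7:24897247-24897546 on the plus strand for Cd79a.
Cd3g: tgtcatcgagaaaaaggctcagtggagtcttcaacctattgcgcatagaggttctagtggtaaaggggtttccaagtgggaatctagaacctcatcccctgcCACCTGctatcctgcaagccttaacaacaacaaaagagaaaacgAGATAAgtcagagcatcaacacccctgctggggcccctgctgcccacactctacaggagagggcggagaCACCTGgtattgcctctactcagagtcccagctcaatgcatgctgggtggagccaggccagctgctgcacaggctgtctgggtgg
Cd3d: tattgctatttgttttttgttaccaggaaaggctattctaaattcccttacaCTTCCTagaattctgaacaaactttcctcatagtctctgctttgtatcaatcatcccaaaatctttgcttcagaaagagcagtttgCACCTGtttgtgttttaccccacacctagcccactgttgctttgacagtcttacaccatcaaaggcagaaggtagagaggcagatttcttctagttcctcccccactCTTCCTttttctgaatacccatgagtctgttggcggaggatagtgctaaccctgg
Cd3e: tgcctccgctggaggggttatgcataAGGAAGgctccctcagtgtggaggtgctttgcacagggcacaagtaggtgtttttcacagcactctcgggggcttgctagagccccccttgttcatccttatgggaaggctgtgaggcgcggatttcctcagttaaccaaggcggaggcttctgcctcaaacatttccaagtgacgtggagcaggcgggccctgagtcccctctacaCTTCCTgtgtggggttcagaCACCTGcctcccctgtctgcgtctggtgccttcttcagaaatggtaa
Cd79a: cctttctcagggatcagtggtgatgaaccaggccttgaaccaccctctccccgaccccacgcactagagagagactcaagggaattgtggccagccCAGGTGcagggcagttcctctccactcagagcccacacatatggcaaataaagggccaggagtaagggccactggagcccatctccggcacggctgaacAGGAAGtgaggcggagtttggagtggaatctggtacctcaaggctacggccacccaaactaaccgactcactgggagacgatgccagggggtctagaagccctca

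The E-box stood in all 4 of these regions, with 2 matches in Cd3g and 1 in each of the others, and in 20.2% of 32851 mouse start regions of the same length. The ETS motif stood in Cd3d with 2 matches, in Cd3e with 2 and in Cd79a with 1, and in 35.4% of all regions. The GATA motif stood in Cd3g only among the 4, and in 11.2% of all regions. Both strands were searched, the motifs share no bases, and no match was found in the 4 regions for the RUNX motif TGTGGT (16.8% of all regions) or the octamer ATGCAAAT (1.74% of all regions), which is known from immunoglobulin promoters. The region of Cd8a, chr6:71373177-71373476 on the plus strand, held none of these 5 motifs. The motifs were picked as ones known from lymphocyte genes, and a match describes the letters only.

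The genes were first ordered by level per kilobase of merged exon, the only scale on which different genes can be compared. Igkc, the constant region of the kappa light chain (chromosome 6, 70726435 to 70726966, plus strand), averaged 6.36 ± 6.25 CPM per kb over all 16 libraries. Ighm, the constant region of the mu heavy chain that defines IgM (chromosome 12, 113418558 to 113422730, minus strand), averaged 6.19 ± 3.11 CPM per kb. These levels did not differ beyond their spread, and both lay well above all the others. Cd79b, a signalling chain of the B cell receptor (chromosome 11, 106311341 to 106314762, minus strand), averaged 0.998 ± 0.338 CPM per kb, and its partner Cd79a (chromosome 7, 24897381 to 24902197, plus strand) averaged 0.62 ± 0.313 CPM per kb, more than 1 SD lower.

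Cd4, the co-receptor of helper T cells, which some dendritic cells also express in the mouse (chromosome 6, 124864692 to 124888221, minus strand), averaged 0.514 ± 0.159 CPM per kb and so lay within the spread of Cd79a. Cd3d, a signalling chain of the T cell receptor (chromosome 9, 44981786 to 44987339, plus strand), averaged 0.28 ± 0.151 CPM per kb, more than 1 SD below Cd4. Its neighbour Cd3g (chromosome 9, 44969572 to 44980431, minus strand) averaged 0.209 ± 0.0761 CPM per kb. From Cd3d downwards, each gene lay within 1 SD of the next, by the larger SD of each pair. Ms4a1, which encodes the B cell surface protein CD20 (chromosome 19, 11249675 to 11266241, minus strand), averaged 0.138 ± 0.085 CPM per kb. Cd3e (chromosome 9, 44998740 to 45009627, minus strand) averaged 0.0789 ± 0.0461 CPM per kb, and Cd8a, the co-receptor chain of cytotoxic T cells (chromosome 6, 71373427 to 71379173, plus strand), averaged 0.059 ± 0.0479 CPM per kb (SD, n = 16 for each). Coordinates are those of GRCm38, the assembly that mm10 names. An antisense gene, Gm48719, overlaps 3.31% of the Cd3e exons, and reads from it cannot be told apart from Cd3e reads here.

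**Figure D1:**
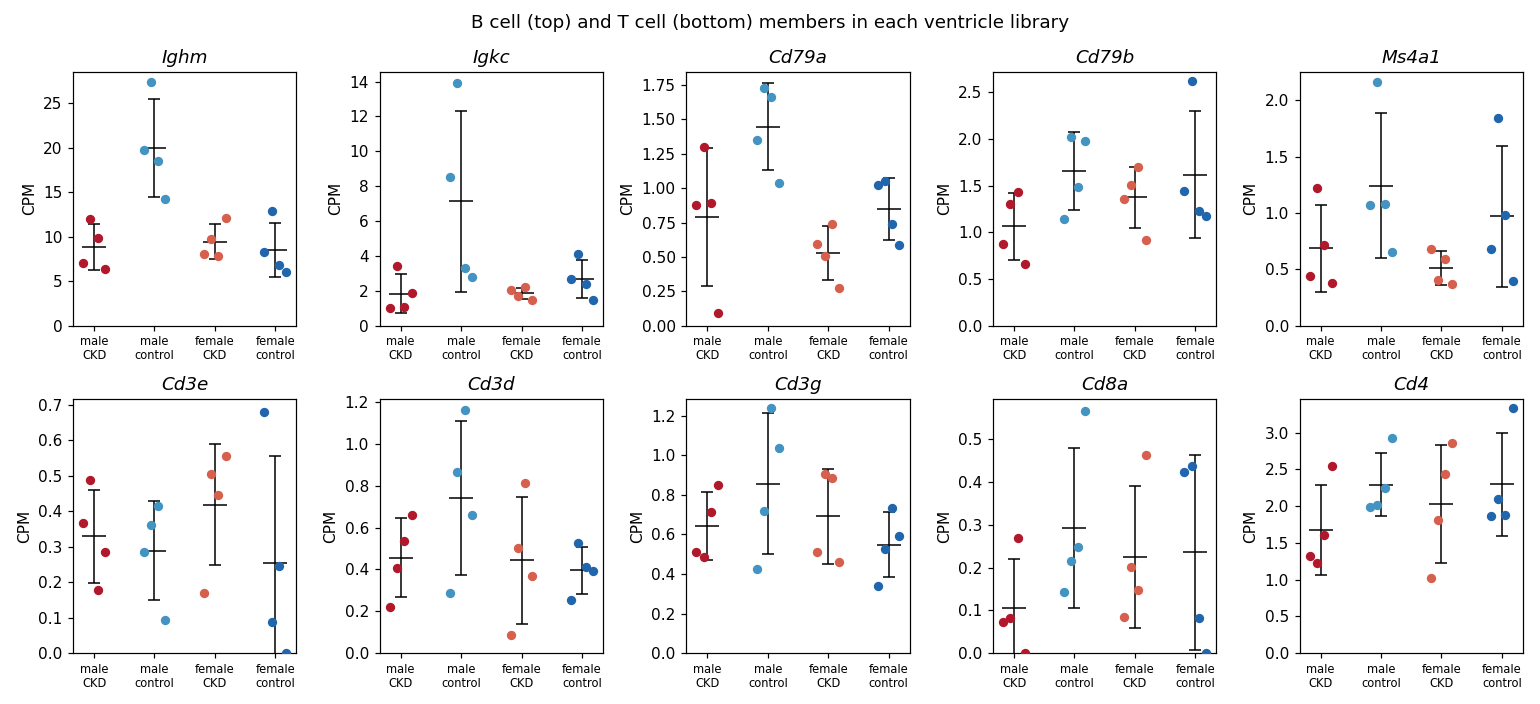
Levels of the 10 genes in each of the 16 libraries, in CPM on a linear scale that differs between panels; each point is 1 mouse, the long bar the group mean and the whiskers 1 SD (n = 4). The Ighm values of the 4 male CKD mice, 6.43 to 12 CPM, all lie below those of the 4 male control mice, 14.2 to 27.4 CPM.

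The question put by the design was whether CKD hearts differ from control hearts. The 5 B cell genes had lower mean levels in CKD hearts over both sexes, each with a negative log2 fold change, and 4 of the 5 T cell genes had lower means with no exact permutation p below 0.05, while Cd3e had a higher mean. None of the 6 genes tested passed the adjusted threshold of 0.05 in edgeR's quasi-likelihood test with sex as a covariate, in a comparison that called 14 of 16400 genes (0.0854%). By unadjusted p, 4 of the 6 lay below 0.05 in edgeR (Igkc, Ms4a1, Cd79a and Ighm), all lower in CKD, against 7.24% of all genes tested. DESeq2, which called 362 genes (2.03% of those given an adjusted p), called 1 of the 6, Igkc, and gave 4 by unadjusted p, all lower, against 7.06% of genes. Limma-voom, which called 199 genes (1.21%), called 0 of the 6 and gave 3 by unadjusted p, all lower, against 8.7% of genes. The level the filter asks for, 0.856 CPM in at least 4 libraries, was reached by Cd79a in 3 CKD and 6 control libraries and by Ms4a1 in 1 CKD and 5 control libraries. Both therefore passed through the control libraries, where they were higher, so the counts and the median over the genes tested are descriptions only. The median log2 fold change of the 5 B cell genes was -0.76, beside 0.0017 over all genes tested, of which 49.8% were negative. What the p-values measure is the spread between libraries, taken as 1 mouse each. Each title carries a different code, which the labels do not explain.

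Igkc had the lowest fold change of the 6 tested. In male CKD hearts it had 1.02, 3.42, 1.07 and 1.89 CPM, against 8.54, 13.9, 3.32 and 2.82 CPM in male control hearts. In female CKD hearts it had 2.04, 1.71, 2.22 and 1.48 CPM, against 2.71, 4.11, 2.37 and 1.48 CPM in female control hearts. The groups overlapped in both sexes, and male control 1 and 2 stood far above all other libraries. The fitted log2 fold change was -1.28 ± 0.38 (SE, 8 against 8 mice), with an adjusted p of 0.136 in edgeR's quasi-likelihood test. DESeq2 gave an adjusted p of 0.0444, and adjusted p ran from 0.0444 to 0.257 over 10 other ways of fitting. With male control 1 and 2 both left out, the edgeR estimate was -0.63, with an unadjusted p of 0.0366 and an adjusted p of 0.257.

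The Ighm values separated in males and overlapped in females. Male CKD hearts had 7.02, 12, 9.81 and 6.43 CPM, against 19.7, 27.4, 18.5 and 14.2 CPM in male control hearts, and these groups did not overlap. Such separation, with every CKD value below every control value, was found for 1.56% of all genes tested in males. Female CKD hearts had 8.06, 9.78, 7.84 and 12.1 CPM, against 8.23, 12.9, 6.87 and 6.00 CPM in female control hearts, with overlap. Over both sexes the log2 fold change was -0.53 ± 0.25 (SE), with an unadjusted p of 0.0452 and an adjusted p of 0.314 in edgeR.

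Cd79a had 1 to 24 counts per library. Male CKD hearts had 12, 16, 10 and 1 counts, or 0.878, 1.3, 0.892 and 0.0946 CPM, against 19, 24, 20 and 11 counts, or 1.35, 1.73, 1.66 and 1.04 CPM, in male control hearts. Female CKD hearts had 7, 5, 10 and 3 counts, or 0.594, 0.504, 0.74 and 0.277 CPM, against 12, 12, 9 and 6 counts, or 1.02, 1.05, 0.736 and 0.59 CPM, in female control hearts. All 8 CKD values lay below the control mean of their own sex, although the groups overlapped in each sex. The same held for Igkc, and 7 of 8 did so for Cd79b and for Cd8a. No share over all genes is given for this count, so it marks out none of these genes. The log2 fold change of Cd79a was -0.76 ± 0.30 (SE), with an adjusted p of 0.237 in edgeR, and -0.57 without male CKD 4.

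Ms4a1 had 0.439, 1.22, 0.714 and 0.378 CPM in male CKD hearts, against 1.07, 2.16, 1.08 and 0.659 CPM in male control hearts. It had 0.678, 0.403, 0.592 and 0.369 CPM in female CKD hearts, against 0.679, 1.84, 0.981 and 0.393 CPM in female control hearts. Here too all 8 CKD values lay below the control mean of their sex, with overlap in both sexes. Male CKD 2, at 1.22 CPM, was just below the male control mean of 1.24 CPM but above the male control median of 1.07 CPM. At least 10 counts were found in 1 of 8 CKD libraries and in 5 of 8 control libraries. The log2 fold change was -0.88 ± 0.33 (SE), with an adjusted p of 0.221 in edgeR.

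Cd79b had the smallest fold change of the 5 B cell genes. It had 0.878, 1.3, 1.43 and 0.662 CPM in male CKD hearts, against 1.14, 2.02, 1.49 and 1.98 CPM in male control hearts. It had 1.36, 1.51, 1.7 and 0.923 CPM in female CKD hearts, against 1.44, 2.62, 1.23 and 1.18 CPM in female control hearts, and the groups overlapped in both sexes. The log2 fold change was -0.42 ± 0.23 (SE), with an adjusted p of 0.379 in edgeR.

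**Figure D2:**
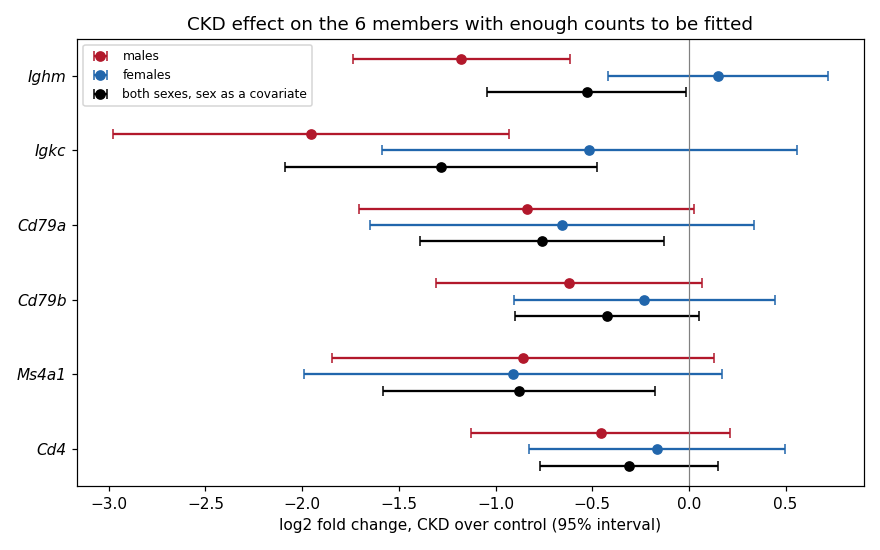
Log2 fold change of CKD over control, with its 95% interval, for the 6 genes that had enough counts to be fitted by edgeR, in males, in females and in both sexes with sex as a covariate. The male estimate for Ighm, -1.18, and the female estimate, 0.15, lie on opposite sides of 0, while Ms4a1 has -0.86 in males and -0.91 in females.

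A test without a count model was run on mean CPM, with treatment labels permuted within each sex (4900 arrangements, two-sided exact permutation test, smallest possible p 0.00041). Cd79a differed by -0.486 CPM, with 0.66 ± 0.381 CPM in CKD hearts and 1.15 ± 0.407 CPM in control hearts (SD, n = 8 each, exact permutation p = 0.00694). Igkc gave an exact permutation p of 0.0143, Ms4a1 0.0437, Ighm 0.049 and Cd79b 0.0935. Across 16398 of the 33399 genes this test gave an unadjusted p of up to 0.05 with a lower CKD mean for 7.48% of them. With each of the 16 libraries left out in turn, Cd79a kept a p below 0.05 in all 16 runs, Igkc in 13, Ms4a1 in 5 and Ighm in 4. With male control 1 and 2 both left out, a choice made after their values were seen, none of the 4 did, and their p ran from 0.059 for Cd79a to 0.166 for Ms4a1. Cd79a and Ms4a1 reached the filter level through control libraries only, where they were higher. Their permutation p-values and counts of runs are therefore descriptions and support nothing further.

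The T cell genes sat near the limit of counting. Cd3e had 5, 6, 2 and 3 counts in male CKD hearts, against 4, 5, 5 and 1 in male control hearts. It had 2, 5, 6 and 6 counts in female CKD hearts, against 8, 1, 3 and 0 in female control hearts. A count of 0 allows up to 3 counts, or 0.295 CPM, in that last library, so no library could be called free of Cd3e. Pooled over mice, 35 counts in CKD hearts stood against 27 in control hearts, a rate ratio of 1.33 with an exact 95% interval of 0.782 to 2.28 that covers counting error only. The exact permutation p was 0.302.

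Cd3d had 3, 5, 6 and 7 counts in male CKD hearts, against 4, 12, 14 and 7 in male control hearts, and 1, 5, 11 and 4 in female CKD hearts, against 3, 6, 5 and 4 in female control hearts. The rate ratio was 0.784, with an exact interval of 0.512 to 1.19, and the exact permutation p was 0.398. Cd3g had 7, 6, 8 and 9 counts in male CKD hearts, against 6, 10, 15 and 11 in male control hearts, and 6, 9, 12 and 5 in female CKD hearts, against 4, 6, 9 and 6 in female control hearts. Its rate ratio was 0.95, with an exact interval of 0.661 to 1.36, and its exact permutation p was 0.783. The groups overlapped for each CD3 gene in each sex. These intervals leave out the spread between mice, so differences at least as wide as they span could go undetected here.

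Cd8a was the scarcest, with 1, 1, 3 and 0 counts in male CKD hearts, against 2, 3, 3 and 6 in male control hearts, and 1, 2, 2 and 5 in female CKD hearts, against 5, 5, 1 and 0 in female control hearts. All 16 libraries together held 40 counts, and the rate ratio of 0.616 had an exact interval of 0.302 to 1.21, with an exact permutation p of 0.286. Cd4 was the only T cell gene above the filter. It had 1.32, 1.22, 1.61 and 2.55 CPM in male CKD hearts, against 1.99, 2.02, 2.24 and 2.92 CPM in male control hearts. It had 1.02, 1.81, 2.44 and 2.86 CPM in female CKD hearts, against 1.87, 2.1, 1.88 and 3.34 CPM in female control hearts. The groups overlapped in both sexes, and the log2 fold change was -0.31 ± 0.22 (SE), with a 95% interval of -0.77 to 0.15 and an adjusted p of 0.508 in edgeR.

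The spread within groups was set against counting error. The variance over its Poisson expectation was 1.02 for Cd3g, 1.44 for Cd79a, 1.52 for Cd3e, 1.58 for Cd3d, 1.66 for Cd8a and 1.73 for Cd79b. It was 2.37 for Cd4 and 2.9 for Ms4a1, and reached 11.2 for Ighm and 14.8 for Igkc. This ratio rises with the count for the same relative spread between mice, so its order does not rank the genes by that spread.

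The CKD comparison was then made in each sex, in a model with the 4 groups as levels. In males 0 of the 6 genes passed the adjusted threshold in edgeR, as did 0 of all genes (0.0%). By unadjusted p, 2 were below 0.05, both lower, against 2.95% of all genes. Ighm had a male log2 fold change of -1.18 ± 0.27 (SE, 4 against 4 mice), with an unadjusted p of 0.000391 and an adjusted p of 0.493 in edgeR, and Igkc had -1.96 ± 0.48 with an adjusted p of 0.572. DESeq2, which called 11 genes in males (0.0691%), gave Ighm an adjusted p of 0.0347, a value that ran from 0.0347 to 0.684 over 8 other ways of fitting. Limma-voom called 0 of the 6 and 0 of all genes (0.0%) in males. The exact permutation test in males gave 0.0286 for Ighm, the smallest p that 4 against 4 allows. The 4 other genes had -0.84 for Cd79a, -0.62 for Cd79b, -0.86 for Ms4a1 and -0.46 for Cd4. Igkc in males had -0.75 with male control 1 and 2 left out, while Ighm had -0.91.

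In females the log2 fold changes were 0.15 for Ighm, -0.51 for Igkc, -0.65 for Cd79a, -0.23 for Cd79b, -0.91 for Ms4a1 and -0.16 for Cd4. None passed the adjusted threshold in edgeR, which called 9 of all genes (0.0549%), in DESeq2, which called 30 (0.174%), or in limma-voom, which called 55 (0.335%). In edgeR 0 were below an unadjusted p of 0.05, against 4.18% lower among all genes. The difference between the sexes was tested itself. For Ighm the female effect minus the male effect was 1.33 ± 0.38 on the log2 scale, with a 95% interval of 0.53 to 2.12. Its unadjusted p of 0.00276 became an adjusted p of 1 in edgeR, in a comparison with 0 calls (0.0%) and 1.68% of genes below an unadjusted 0.05 in either direction. For Igkc the difference was 1.44 ± 0.70, with an unadjusted edgeR p of 0.0561. The other 4 ran from -0.05 for Ms4a1 to 0.39 for Cd79b, and DESeq2 and limma-voom called 0 of the 6 and 0 of all genes (0.0% each).

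Female hearts were also set against male hearts with treatment as a covariate, a comparison in which 28 genes (0.171%) were called. Ighm had a log2 fold change of -0.58 ± 0.25 (SE), female over male, with an adjusted p of 0.155 in edgeR. Limma-voom called 2717 genes (16.6%) in this comparison and gave Ighm an adjusted p of 0.0433, and adjusted p ran from 0.0433 to 0.332 over 8 other ways of fitting. Cd79a had -0.68 ± 0.30 with an adjusted p of 0.169 in edgeR. These were the 2 of 6 with an unadjusted p below 0.05, both lower in females, against 16.1% of all genes. DESeq2 called 1461 genes (9.99%) and none of the 4 to which it gave an adjusted p, since Cd79a and Ms4a1 got none. In control hearts the 4 female Ighm values, 6.00 to 12.9 CPM, were all below the 4 male values, 14.2 to 27.4 CPM, as held for 2.03% of genes. In CKD hearts Ighm averaged 9.44 ± 1.97 CPM in females and 8.83 ± 2.6 CPM in males (SD, n = 4 each).

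Red cell and platelet genes were read as signs of blood. The summed level of 10 red cell and platelet genes was 382 to 1190 CPM in male CKD hearts, against 1290 to 1970 CPM in male control hearts, with no overlap. In females it was 435 to 3860 CPM in CKD hearts, against 1180 to 3110 CPM in control hearts. Among single genes tested, 1.56% had every male CKD value below every male control value, and no such share is given for sums. Of the 8 red cell and platelet genes that were tested 5 had a negative log2 fold change over both sexes, beside 49.8% of all genes. In edgeR 0 of the 8 had an unadjusted p below 0.05. The globin genes Hba-a2, Hba-a1 and Hbb-bt had -0.43, -0.41 and -0.36, while the platelet genes Pf4, Ppbp and Itga2b had 0.05, 0.43 and 0.20. The part of blood in the male Ighm and Igkc values was not tested.

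Levels of general leukocyte genes were also compared. Summed over 10 genes expressed broadly in white blood cells, they came to 67.5 to 114 CPM in male CKD hearts, against 99.5 to 149 CPM in male control hearts, and 85.6 to 106 CPM in female CKD hearts, against 103 to 123 CPM in female control hearts. All 10 had negative log2 fold changes (median -0.29), beside 49.8% of all genes tested. An unadjusted p below 0.05 was found for 4 of them, against 7.24% of all genes, counted where lower in CKD. In edgeR 0 of the 10 passed the adjusted threshold, and 1 of the 10 reached the filter level through control libraries only. The lowest p values were those of Coro1a, Rac2 and Laptm5, with -0.35, -0.40 and -0.50. Set against this sum, Cd79a, Cd79b and Ms4a1 together came to 2.57 ± 0.689% of it in CKD hearts and 3.29 ± 1.03% in control hearts (SD, n = 8 each). Ighm and Igkc together came to 11.1 ± 2.46% in male CKD hearts and 22.4 ± 9.31% in male control hearts, and to 11.9 ± 1.41% in female CKD hearts and 9.9 ± 3.81% in female control hearts (SD, n = 4 each). The 3 CD3 genes came to 1.62 ± 0.647% in CKD hearts and 1.27 ± 0.352% in control hearts (SD, n = 8 each). Whether the B cell genes differ beyond the general leukocyte signal was not tested.

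**Figure D3:**
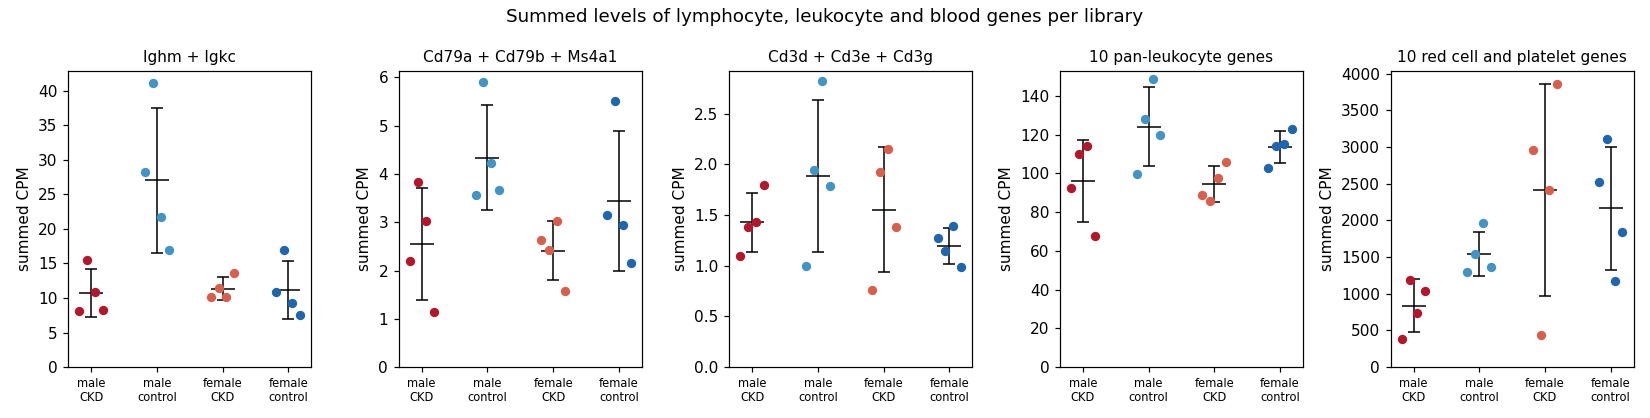
Summed CPM per library of Ighm with Igkc, of Cd79a, Cd79b and Ms4a1, of the 3 CD3 genes, of 10 pan-leukocyte genes and of 10 red cell and platelet genes; each point is 1 mouse, with the group mean and 1 SD (n = 4). The red cell and platelet sum of the male CKD hearts, 382 to 1190 CPM, lies below that of the male control hearts, 1290 to 1970 CPM, as does their Ighm with Igkc. In females the CKD and control groups overlap for both sums. Among single genes tested, 1.56% had every male CKD value below every male control value, and no such share is given for sums.

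The sample titles carry a code number that the labels do not explain. It is 6 in 5 CKD and 5 control libraries. Among these, Igkc averaged 1.61 ± 0.547 CPM in CKD hearts and 6.33 ± 4.89 CPM in control hearts, a difference of -4.71 CPM (SD, n = 5 each), while in the other 6 libraries the difference was -0.275 CPM. Cd79a differed by -0.455 CPM with code 6 and by -0.537 CPM with other codes, Ighm by -6.5 and -2.71 CPM, Cd79b by -0.314 and -0.587 CPM, and Ms4a1 by -0.78 and -0.0537 CPM. Male control 1 and 2 both carry code 6. Cd3g differed by 0.157 CPM with code 6 and by -0.356 CPM with other codes, and Cd4 by -0.332 and -0.621 CPM.

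The make-up of the immunoglobulin transcripts was read from the constant-region genes. Over all 16 libraries Ighm held 2271 counts, Ighg2c 591, Ighd 361, Igha 85, Ighg2b 15, Ighg1 14 and Ighg3 12, so the mu chain held most of the heavy-chain counts and gamma 2c came next. Among the light chains Igkc held 681 counts, Iglc2 81, Iglc1 49 and Iglc3 44. Near-identical constant genes can share reads, so counts within the lambda and gamma families are uncertain. Igkc per Ighm count was 0.433 and 0.508 in male control 1 and 2 and 0.109 to 0.345 in the other 14 libraries. Jchain, which joins IgM and IgA into polymers and is made by antibody-secreting cells, had 27 and 44 counts in these libraries and 0 to 9 in every other. Ighg2c, by contrast, had 3.06 ± 0.976 CPM in CKD hearts and 3.1 ± 1.48 CPM in control hearts (SD, n = 8 each), a log2 fold change of -0.01 with an adjusted p of 0.988 in edgeR.

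Genes of the same pathways were counted by list. These counts stand beside 49.8% of all genes with a negative log2 fold change and 7.24% with an unadjusted p below 0.05 and a lower CKD level. Of 20 further B cell genes 9 were tested, of which 8 had negative log2 fold changes, 3 with an unadjusted p below 0.05, and the median was -0.31. The lowest p values were those of H2-Ob, a chain of the antigen-loading modulator in B cells, the inhibitory receptor Cd22 and the scaffold Bank1, with -0.85 ± 0.25, -0.90 ± 0.31 and -0.75 ± 0.33 (SE). Cd22 had 2 to 7 counts in all 8 CKD libraries and 10 or more in 5 control libraries only. It was 1 of 4 of these 9 genes, Bank1 included, that reached the filter level in 4 control libraries but not in 4 CKD libraries, so its difference and the count support nothing further. Of 17 immunoglobulin and plasma cell genes 7 were tested and 6 were negative, 2 of them with an unadjusted p below 0.05, with a median of -0.28. Prdm1, which encodes the plasma cell regulator BLIMP-1, had -1.24 ± 0.39, the proteoglycan gene Sdc1 -0.43 ± 0.16 and Ighd -0.41 ± 0.33, and both of the first 2 are also expressed outside the B lineage. None of these passed the adjusted threshold in edgeR.

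All 12 signalling genes downstream of the B cell receptor were tested. Of these 9 were negative and 1 had an unadjusted p below 0.05, the kinase gene Blk with -0.58 ± 0.24 (SE), while the median was -0.11. Of 24 further T cell genes 15 were tested and 13 were negative, 2 with an unadjusted p below 0.05, with a median of -0.36, and 3 of the 15, Trac included, reached the filter level through control libraries only. Thy1, which fibroblasts express too, had -0.47 ± 0.14, and the T cell receptor constant genes Trbc2 and Trbc1 had -0.53 ± 0.21 and -0.53 ± 0.28. Trac, the alpha chain constant gene, had -0.33 ± 0.18. Of 12 T cell receptor signalling genes 9 were tested, 8 were negative and 1, the kinase gene Fyn with -0.33 ± 0.12, had an unadjusted p below 0.05, with a median of -0.14. In each list 0 passed the adjusted threshold in edgeR, and the shares with a low unadjusted p, 1 of 12, 2 of 15 and 1 of 9, are read against the 7.24% of all genes. None of the 12 natural killer cell genes had enough counts, and their sum was 1.84 ± 0.662 CPM in CKD hearts and 3.38 ± 1.09 CPM in control hearts (SD, n = 8 each).

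Markers of other cells were counted in the same way. Of 15 macrophage and dendritic cell genes 12 were tested, 9 were negative and 3 had an unadjusted p below 0.05, with a median of -0.11 and the lowest value, -0.76 ± 0.25 (SE), for Itgax, which also passed the filter through control libraries only. Of 8 cardiomyocyte genes 2 were negative, with a median of 0.12, and 2 had an unadjusted p below 0.05, both higher in CKD. These were Tnnt2 with 0.36 ± 0.10 (SE, adjusted p 0.123 in edgeR and 0.038 in DESeq2) and Tnni3 with 0.26 ± 0.12, both of which encode troponin chains. The 7.24% given above counts genes lower in CKD. No share of genes higher in CKD is given, so this count of 2 of 8 is a description only. Of 5 tested fat cell genes 2 were negative, of 2 tested lymphoid tissue genes 1 was, and no lung gene was tested. No gene of these lists passed the adjusted threshold in edgeR. The part of a different share of heart muscle RNA in the levels of the lymphocyte genes was not tested.

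How the genes varied together was described by Pearson's r of log2(CPM + 0.5) over the 16 libraries after each group mean was removed. The points share library depth and, for many genes, very low counts. Among the 10 pairs of B cell genes the median r was 0.62 (0.273 to 0.778), highest for Ighm with Ms4a1. Among the 10 pairs of T cell genes it was 0.095 (-0.218 to 0.776), and among the 25 mixed pairs it was -0.04 (-0.667 to 0.454). Within the T cell genes Cd3d with Cd3g had 0.776, or 0.798 with group means left in, while Cd3e had 0.082 with Cd3d and -0.218 with Cd3g. At 4 to 15 counts per library Cd3g varied no more than counting error gives (a ratio of 1.02), so these values describe sparse counts and support no statement on shared variation. The annotated starts of Cd3g and Cd3d are 1355 bases apart on opposite strands, and the 3 CD3 genes span 40056 bases. 

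**Figure D4:**
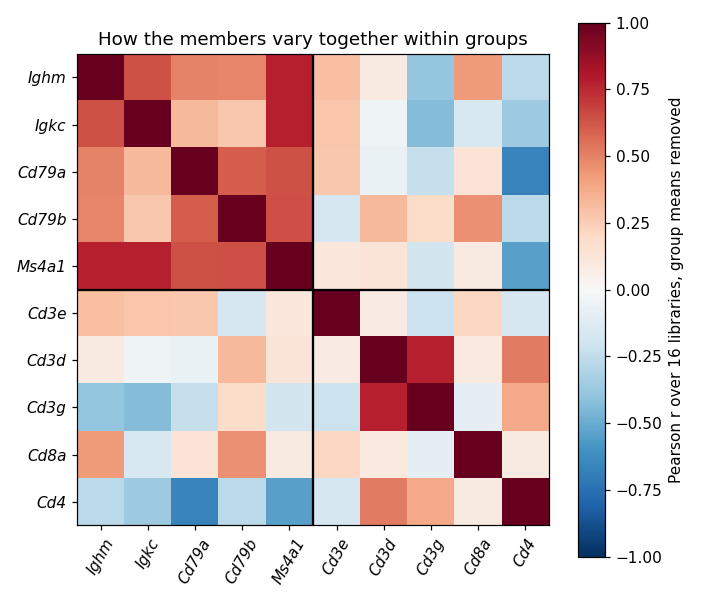
Pearson's r between the 10 genes over 16 libraries, on log2(CPM + 0.5) with group means removed, in the order B cell genes then T cell genes, divided by black lines. The B cell block holds only positive values, 0.273 to 0.778, and the darkest cell of the T cell block is Cd3d with Cd3g at 0.776.

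Libraries ranked alike for many genes. Male control 2 was among the highest 2 libraries for all 5 B cell genes and the highest of all for 4 of the 10 genes, but among the highest 2 for only 1 T cell gene. Male control 3 and male control 4 were the highest for 2 genes and 1 gene. Male CKD 4 and female control 4 were each the lowest library for 3 genes.

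Among protein-coding genes tested, those whose log2 CPM over the 16 libraries was most like each gene's, group means removed, were listed as a description. They are the highest found in a search of the protein-coding part of 16400 genes. Such a search over 16 libraries can reach a high r by itself, single outlying libraries can set it, and no r was tested. For Ighm they were Anxa4, Foxp1 and Smc1a (r = 0.881, 0.875 and 0.851), and for Igkc Cdk7, Lekr1 and Ctsl (0.974, 0.935 and 0.876). For Cd79a they were Mmrn1, Bmx and Dpy19l3 (0.928, 0.925 and 0.921), and for Cd79b Zfc3h1, Nfat5 and Rufy2 (0.915, 0.894 and 0.892). For Ms4a1 they were Btla, Fam124b and Ccdc82 (0.902, 0.872 and 0.861), and for Cd4 Tnfrsf9, Gzmm and Il13 (0.872, 0.859 and 0.853).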

How the data were processed

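Counts per gene came from bulk RNA sequencing of ventricles (50 bp paired-end reads, per the labels' protocols), and the authors deposited them as raw whole-number counts in 1 table without scaling. The submitters' processing notes list Subread 1.6.3 with featureCounts, STAR 2.6.1d, DESeq2 1.30.1, MultiQC and FastQC, and genome mm10. They name no annotation release, strand setting or rule for multi-mapped reads (not given in the sources used here). Of 33399 gene identifiers 33367 matched GENCODE M21.

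From these counts, edgeR 4.0.16 (R 4.3.3) was run with TMM scaling and the filterByExpr filter by group (at least 10 counts, total at least 15), leaving 16400 genes. Groups came from the treatment and sex labels, and replicates were numbered in record order. CKD against control was fitted with sex as a covariate, and each sex, the interaction and female against male in the same data. Adjusted p-values are Benjamini-Hochberg over all genes tested, with a threshold of 0.05, two-sided. Variation between mice set the precision, with a common coefficient of 0.225 and a median SE of 0.149 for the log2 fold change. Single genes were also tested by exact permutation of mean CPM within sex (scipy 1.17.1). The exact intervals of the rate ratios and the floors (3 counts) cover counting error only. Intervals of the edgeR log2 fold changes were built from their SE and include the spread between mice. The edgeR test was tried on simulated counts with 200 changed genes. The permutation test was tried on single genes with simulated Poisson counts. That second trial held no spread between mice, so it does not cover the wider spread of several genes here. DESeq2 1.42.0, limma 3.58.1 voom and other settings were alternatives.

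Named were the 10 genes, up to 3 genes of lowest p from each of 15 lists (170 genes in all), and the 3 genes most like each gene tested. Trac, Jchain, Sftpc, Pf4, Ppbp, Itga2b, Ighg2c and the other immunoglobulin constant genes were named after their values were seen. The genes and lists were chosen with earlier results of these data known. RefSeq start regions (GRCm38.p6) were matched by symbol for 5 of the 10 genes, and the motifs were chosen with those regions in view.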

Additional observations from a re-analysis of the deposited data

Results flagged for a closer look

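Cd4 in female control 4, at 3.34 CPM, lay far above the other 3 female control hearts, which had 1.87 to 2.1 CPM. Its gap to the nearest of them was 0.843 of the group's range, above Dixon's 95% critical value for 4 samples. Chance marks about 1 in 20 groups in this way, and 10 genes in 4 groups were examined. Without this library the female log2 fold change of Cd4, CKD over control, was 0.025, and over both sexes the lower CKD mean differed by -0.266 CPM in place of -0.44 CPM.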

How the results depend on the processing

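No paired analysis was possible because the labels give no replicate numbers, and those used here were assigned in record order. The count of genes called, 14 for CKD against control, 0 in males, 9 in females and 28 for female against male, depended on the tool. In that order DESeq2 gave 362, 11, 30 and 1461, and limma-voom 199, 0, 55 and 2717. Without the filter they were 53, 1, 10 and 616. With title code 6 against all other codes as a factor they were 60 and 1 for the first 2. They were 22 for the first with male CKD 4 and female control 2 left out, and 8 with code 6 only. With male control 1 and 2 left out, chosen after seeing the data, they were 102, 6, 5 and 16. The interaction gave 0 in every case. Leaving out 1 library gave 6 to 43, 0 to 1, 0 to 13 and 8 to 1461 calls, the highest without female CKD 4, female control 1, male CKD 4 and female control 3.

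Small interaction values changed sign. Limma-voom gave -0.13 for Cd79a and 0.055 for Ms4a1. Without male CKD 4 and female control 2 they were -0.0503 and 0.24, and Cd79b had 0.085 in females and -0.10 for female against male. The lymphoid chemokine gene Ccl19, over both sexes, had 0.14 with limma-voom and 0.24 with code 6 only, where the mean CPM difference was -0.0074 for Cd3e and 0.137 for Cd3g. With 1 library left out the interaction ran from -0.19 to 0.49 for Cd79a and from -0.48 to 0.44 for Ms4a1, and the female effect from -0.017 to 0.42 for Ighm, from -0.38 to 0.10 for Cd79b and from -0.37 to 0.060 for Cd4. Over both sexes Ccl19 ran from -0.28 to 0.0625, Ccl21a from -0.029 to 0.19, and the Cd3g difference from -0.107 to 0.029 CPM. The cause of these changes was not tested. No sex term and code 6 only were run for CKD against control only. Stricter filters left Cd79a and Ms4a1 untested. Depth limits the CD3 genes and Cd8a, which had under 10 counts in most libraries.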
